A study of Homo sapiens with 6 samples.

Results

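The genes described here are 40 integrin and focal adhesion genes, chosen by symbol for their place in cell-matrix contacts: integrin alpha and beta chains, the membrane proteins CD44 and CD151, and the adaptors and kinases that gather at the inner side of the contact. They are 40 of the 60683 genes in the deposited table, and 39 had enough counts to be tested. The cells were 143B, a human osteosarcoma line derived from the line HOS. One group of 3 libraries came from 143B cells given TPBC-PEG for 24 h, the agent that the study connects with photodynamic therapy, in which a light-activated compound forms reactive oxygen species. The other group of 3 libraries came from 143B cells given PBS for 24 h. The sample titles put the dose of TPBC-PEG at 3 µM and the treatment protocol at 300 µM, so it is not settled, and whether these cells were lit before RNA was taken is not stated. Nothing in the labels ties replicates to separate cultures, so p-values cover the spread between these libraries only, which may be technical.

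Integrins are receptors made of an alpha and a beta chain that hold a cell to the extracellular matrix. On the inside, talins and kindlins bind the beta chain and switch the receptor on, vinculin and zyxin family proteins tie it to actin, and a scaffold of ILK, PINCH and parvin proteins steadies the site. Focal adhesion kinase, SRC, paxillin and p130Cas pass the signal on. In osteosarcoma cells these contacts serve attachment, migration and survival, and genes of this group are known targets of the actin-responsive factor SRF and of the Hippo coactivators YAP and TAZ.

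The libraries held 15726323 to 20486584 counts with TPBC-PEG and 16328710 to 19412955 counts with PBS. Mitochondrially encoded genes took 5.55% to 5.77% of the counts with TPBC-PEG and 6.32% to 7.25% with PBS, and the part of this difference in the results was not tested. Osteoblast lineage markers summed to 463.6 to 500.2 CPM (counts scaled to a common library size by TMM) with TPBC-PEG and 501.8 to 520.7 CPM with PBS. Of these 10 markers 6 reached 1 CPM, while SP7, COL1A2 and BGLAP stayed under 1 CPM and IBSP had no count. The sum is chiefly SPARC, at 365.7 ± 15.2 CPM with TPBC-PEG and 413.5 ± 12.6 CPM with PBS (SD, n = 3), and not all markers moved with it: the lineage factor RUNX2 was higher, by 0.55 ± 0.084 on the log2 scale (SE), as was SPP1, by 0.79 ± 0.079 (SE). Mesenchymal markers, chiefly VIM, summed to 2398 to 2486 CPM with TPBC-PEG and 2649 to 2692 CPM with PBS; the part of either shift in the results was not tested. Leukocyte markers summed to 1.28 to 2.36 CPM with TPBC-PEG and 1.98 to 2.08 CPM with PBS, and endothelial and platelet markers to 1.254 to 2.364 CPM with TPBC-PEG and 1.39 to 2.09 CPM with PBS. Epithelial markers, nearly all EPCAM with KRT14 at 0, summed to 18.3 to 19.4 CPM with TPBC-PEG and 16.9 to 18.7 CPM with PBS, and muscle markers, chiefly MYH3 with MYOD1 at 0, to 14.9 to 18.1 CPM with TPBC-PEG and 15.0 to 17.6 CPM with PBS.

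The comparison asks which adhesion genes differ after TPBC-PEG. Most of the adhesion machinery was lower: of the 39 genes tested, 23 fell, 6 rose and 10 did not pass, at an adjusted p under 0.05 over all 15846 genes tested (edgeR quasi-likelihood test, Benjamini-Hochberg adjustment). That is 74.4% of the adhesion genes, where 33.2% of all genes tested passed, 16.9% as lower and 16.2% as higher. The adhesion genes were chosen with earlier results of these data known, so their share is given without a test. These shares were not matched for expression level, which bears on how easily a gene passes. After removal of the expression-level trend 19 adhesion genes were lower and 5 higher, where 2440 of all 15846 were lower and 2595 higher. Among called genes the median absolute log2 fold change was 0.25 for adhesion genes and 0.29 over all genes. The median log2 fold change, TPBC-PEG over PBS, was -0.19 over the 39 genes and 0.011 over all genes. The largest falls were those of VCL, the vinculin gene, and TNS1, a tensin gene, and the largest rise was that of ITGA11, a collagen-binding alpha chain. The changes were small: 28 of the 29 called genes changed by less than 1.5-fold. Scaled by library size alone, which shifted the median of all genes by 0.043 on the log2 scale, 18 adhesion genes were lower and 6 higher, and the split over all genes was 3213 higher and 1971 lower, against 2574 higher and 2682 lower with TMM scaling. In bulk RNA, fewer cells that use a gene and less RNA per cell cannot be told apart.

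**Figure D1:**
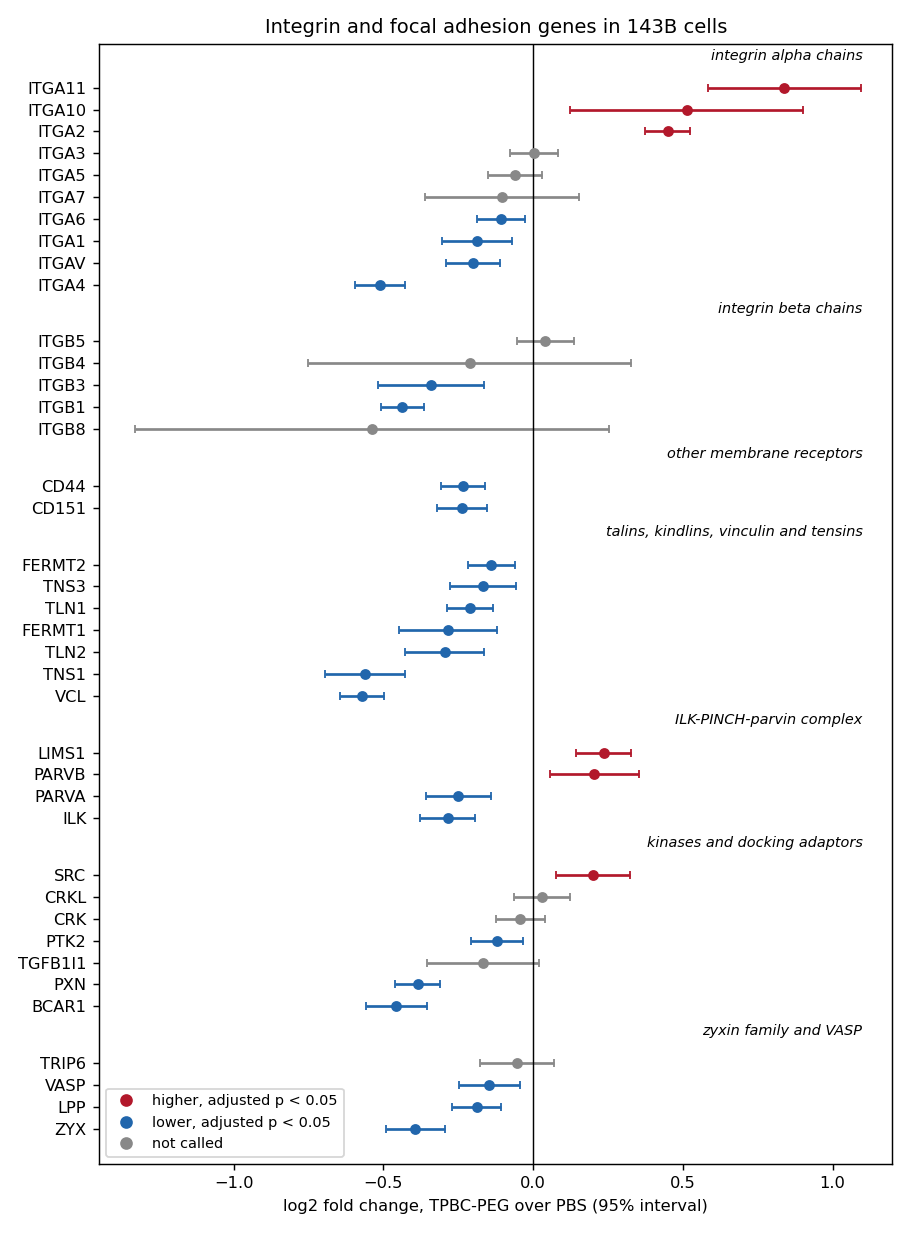
Log2 fold change of each of the 39 tested genes, TPBC-PEG over PBS, grouped by role; points are the estimates of the edgeR fit and bars their 95% intervals. All 7 genes of the talin, kindlin, vinculin and tensin group lie left of 0, while alpha chains lie on both sides, between -0.51 for ITGA4 and 0.84 for ITGA11.

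The 3 CPM values of one group lay wholly outside those of the other for the 29 called genes, 6 higher and 23 lower, and overlapped for the 10 others. Over all genes tested the groups did not overlap for 43.4%, 22.1% as higher and 21.4% as lower. Tested against a 1.5-fold change with edgeR's glmTreat, 0 of the 39 genes passed, 1 of them had an unadjusted p under 0.05, and 0.915% of all genes tested passed.

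Promoter windows of 5 genes are shown because their transcripts mark the pattern: VCL has the largest fall, ITGB1 is the most abundant integrin chain, ITGA2 and ITGA11 rose, and LPP is the called gene with an SRF element in a window. Each window runs from 250 bases before to 50 after a transcription start in RefSeq (GRCh38.p14), on the strand of the gene, and capitals mark motif matches on either strand. Where a gene had several windows, the one with the most motif matches is printed, so it need not be typical of the gene. The motifs searched were the TEAD element GGAATG, bound by the partners of YAP and TAZ, the CArG box, bound by SRF, the AP-1 element TGANTCA and the CRE TGACGTCA. No CRE matches the AP-1 letters. The windows lie at chr10:73997866-73998165 (plus strand), chr10:32958181-32958480 (minus strand, 1 of 2 windows), chr5:52989102-52989401 (plus strand), chr15:68432114-68432413 (minus strand) and chr3:188212462-188212761 (plus strand, 1 of 7 windows).
VCL: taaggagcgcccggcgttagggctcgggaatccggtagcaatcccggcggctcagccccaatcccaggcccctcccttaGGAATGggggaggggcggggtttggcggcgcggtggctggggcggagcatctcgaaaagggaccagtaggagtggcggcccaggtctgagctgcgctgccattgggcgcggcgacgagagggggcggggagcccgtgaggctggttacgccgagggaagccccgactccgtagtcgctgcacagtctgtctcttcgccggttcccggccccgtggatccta
ITGB1: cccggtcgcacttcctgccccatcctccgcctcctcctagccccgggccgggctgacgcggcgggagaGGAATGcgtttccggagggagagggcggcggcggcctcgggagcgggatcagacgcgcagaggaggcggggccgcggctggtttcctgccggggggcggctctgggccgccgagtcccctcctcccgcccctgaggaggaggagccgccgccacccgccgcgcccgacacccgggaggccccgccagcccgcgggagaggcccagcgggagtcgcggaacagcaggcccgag
ITGA2: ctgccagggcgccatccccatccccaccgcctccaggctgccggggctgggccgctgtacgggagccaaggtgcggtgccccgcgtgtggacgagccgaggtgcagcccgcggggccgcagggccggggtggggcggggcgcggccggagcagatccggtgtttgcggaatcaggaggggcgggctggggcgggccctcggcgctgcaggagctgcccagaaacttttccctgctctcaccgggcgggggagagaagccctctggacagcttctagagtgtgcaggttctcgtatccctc
ITGA11: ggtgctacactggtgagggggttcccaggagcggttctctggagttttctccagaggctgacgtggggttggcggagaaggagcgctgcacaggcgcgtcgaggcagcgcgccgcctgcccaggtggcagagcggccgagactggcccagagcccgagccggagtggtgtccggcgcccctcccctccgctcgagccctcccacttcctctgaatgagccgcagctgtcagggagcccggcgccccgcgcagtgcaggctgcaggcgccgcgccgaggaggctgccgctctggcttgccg
LPP: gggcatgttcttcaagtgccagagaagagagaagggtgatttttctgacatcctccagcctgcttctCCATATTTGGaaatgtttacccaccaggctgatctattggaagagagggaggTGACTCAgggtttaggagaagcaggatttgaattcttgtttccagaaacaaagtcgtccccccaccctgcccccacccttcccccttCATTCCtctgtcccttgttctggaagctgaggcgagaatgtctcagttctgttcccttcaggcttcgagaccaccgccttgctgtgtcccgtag

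VCL carries a TEAD element that begins at position -171 from the start, and ITGB1 one at position -182. The LPP window holds a CArG box, an AP-1 element and, on the other strand, a TEAD element. The ITGA2 and ITGA11 windows hold none of these letters, which says nothing about the factors. RefSeq windows were on hand for 31 of the 40 genes, 62 windows in all. A TEAD element was in 16.1% of these windows and in 14.0% of the 35116 windows of all genes. An AP-1 element was in 11.3% of them and 7.71% of all, a CRE in 3.23% of them and 1.85% of all, and a CArG box in 3.23% of them and 1.29% of all. The CArG share rests on 2 windows, of LPP and TGFB1I1. The CRE share also rests on 2 windows, of LPP and TRIP6, and the AP-1 share on 7 windows of 5 genes. Among genes with a window, 5 of 18 that fell held a TEAD element (ITGB1, LPP, PXN, TNS1 and VCL), as did 1 of 5 that rose (ITGA10). A gene can have several windows, and the share by gene was not computed over all genes. By window, a TEAD element was in 7 of 38 of genes that fell and 1 of 9 of genes that rose, beside 14.0% of all windows.

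Each receptor needs a beta chain, and the main one was lower. ITGB1, the partner of most alpha chains (ENSG00000150093, chromosome 10, 32900319 to 33005792 in GRCh38), stood at 701.3, 664.9 and 699.1 CPM with TPBC-PEG and 937.7, 939.8 and 917.0 CPM with PBS. Every TPBC-PEG library lay well under every PBS library, and the libraries of a group lay close together. The log2 fold change was -0.44 ± 0.036 (SE; edgeR adjusted p = 3.54e-14), and the level fell by 26.1%.

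ITGB3, which pairs with ITGAV to bind vitronectin, was at 15.6, 14.9 and 16.4 CPM with TPBC-PEG and 18.8, 20.9 and 19.6 CPM with PBS. It fell at lower abundance, with a log2 fold change of -0.34 ± 0.088 (SE). ITGB5, another partner of ITGAV, was at 82.8 ± 1.86 CPM with TPBC-PEG and 80.4 ± 1.43 CPM with PBS (SD, n = 3) and did not pass, with a 95% interval of the log2 fold change from -0.055 to 0.14. ITGB4, the hemidesmosome chain that pairs with ITGA6, was barely expressed, with 25 to 44 counts per library with TPBC-PEG and 28 to 53 with PBS. ITGB8, the ITGAV partner known for releasing latent TGF-beta, had 10 to 17 counts per library with TPBC-PEG and 12 to 24 with PBS. Neither passed, and their intervals were wide, from -0.75 to 0.33 for ITGB4 and from -1.33 to 0.25 for ITGB8.

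Among alpha chains the changes went both ways. Of the 10, ITGA2, ITGA10 and ITGA11 rose, ITGA1, ITGA4, ITGA6 and ITGAV fell, and ITGA3, ITGA5 and ITGA7 did not pass. That is 70% called, where 33.2% of all genes tested were, 16.9% as lower and 16.2% as higher. The 3 that rose belong to the collagen-binding subfamily, whose remaining member, ITGA1, fell; this grouping was made after the values were seen and was not tested.

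ITGA2, which with ITGB1 forms a collagen receptor (ENSG00000164171, chromosome 5, 52989326 to 53094779), had 318.3, 325.3 and 315.1 CPM with TPBC-PEG and 237.4, 241.5 and 223.2 CPM with PBS. All TPBC-PEG libraries were higher, by a log2 fold change of 0.45 ± 0.038 (SE; edgeR adjusted p = 9.37e-14). ITGA11, a receptor for fibrillar collagen on mesenchymal cells (ENSG00000137809, chromosome 15, 68296533 to 68432162), had 10.2, 11.5 and 10.9 CPM with TPBC-PEG and 6.41, 6.54 and 5.17 CPM with PBS. It had the largest rise of the 39 genes, 0.84 ± 0.13 (SE), at a low level.

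ITGA10, a collagen receptor known from cartilage, was at 4.11, 3.91 and 4.52 CPM with TPBC-PEG and 2.35, 2.94 and 3.53 CPM with PBS, on counts of 45 to 81 per library. Its log2 fold change was 0.51 ± 0.19 (SE). The call was lost without TPBC-PEG replicate 1 or 3 (edgeR adjusted p = 0.0709 and 0.111), without PBS replicate 1 or 2 (0.193 and 0.0667), with no filter on low counts (0.0571), with DESeq2 (0.0966) and with the expression-level trend taken out (0.0893).

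ITGA1, also a collagen receptor, was at 44.2, 44.5 and 43.6 CPM with TPBC-PEG and 50.7, 50.8 and 49.1 CPM with PBS. It lies 30.1 kb before ITGA2 on chromosome 5, and these neighbours moved in opposite directions. The log2 fold change of ITGA1 was -0.19 ± 0.058 (SE), and the call was lost with scaling by library size alone (edgeR adjusted p = 0.0577).

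ITGA4, which binds fibronectin and the vascular adhesion protein VCAM1 (ENSG00000115232, chromosome 2, 181457202 to 181536187), had the largest fall of an alpha chain. It stood at 116.7, 114.7 and 114.3 CPM with TPBC-PEG and 170.7, 159.8 and 162.5 CPM with PBS. The groups lay far apart, with a log2 fold change of -0.51 ± 0.042 (SE; edgeR adjusted p = 2.75e-14). ITGAV, the chain of the vitronectin receptors, was at 115.2, 121.4 and 117.0 CPM with TPBC-PEG and 143.1, 135.4 and 127.8 CPM with PBS, a log2 fold change of -0.20 ± 0.044 (SE). ITGA5, the classical fibronectin receptor chain, was at 109.7, 107.4 and 111.9 CPM with TPBC-PEG and 109.9, 117.8 and 115.2 CPM with PBS. Its groups overlapped, and the 95% interval of its log2 fold change ran from -0.15 to 0.029.

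Of the laminin-binding chains ITGA3, ITGA6 and ITGA7, ITGA6 alone passed. It was at 163.4 ± 4.88 CPM with TPBC-PEG and 176.1 ± 1.77 CPM with PBS (SD, n = 3), with a log2 fold change of -0.11 ± 0.040 (SE). That call was lost without TPBC-PEG replicate 1 or 2 (edgeR adjusted p = 0.138 and 0.121), without PBS replicate 3 (0.0712), after removal of the expression-level trend (0.409) and when scaled by library size alone (0.216). ITGA3 was at 160.4 ± 3.15 CPM with TPBC-PEG and 159.9 ± 1.36 CPM with PBS (SD, n = 3), with a 95% interval of the log2 fold change from -0.076 to 0.083. ITGA7, a laminin receptor of muscle, stood at 7.59 ± 0.621 CPM with TPBC-PEG and 8.15 ± 0.211 CPM with PBS (SD, n = 3), with an interval from -0.36 to 0.15.

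Levels of different chains were compared per length, as TPM, here counts per kilobase of annotated exon scaled to the same total in every library. With TPBC-PEG the highest alpha chain was ITGA2 at 141.9 ± 2.75 TPM, followed by ITGA6 at 87.9 ± 2.30 and ITGA3 at 57.5 ± 1.05 TPM (SD, n = 3). ITGA4, ITGA5 and ITGAV came next at 51.2 ± 0.700, 50.8 ± 0.899 and 50.4 ± 1.42 TPM and did not differ beyond their spread. With PBS, ITGA2 stood at 98.9 ± 6.61 TPM, ITGA6 at 90.1 ± 1.49 and ITGA4 at 69.5 ± 2.99 TPM. ITGAV, at 55.2 ± 4.18 TPM, lay within its spread of ITGA3, at 54.5 ± 1.04 TPM, and ITGA5 stood at 50.4 ± 2.36 TPM. ITGA1, ITGA7, ITGA11 and ITGA10 were each under 10 TPM in both groups.

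**Figure D2:**
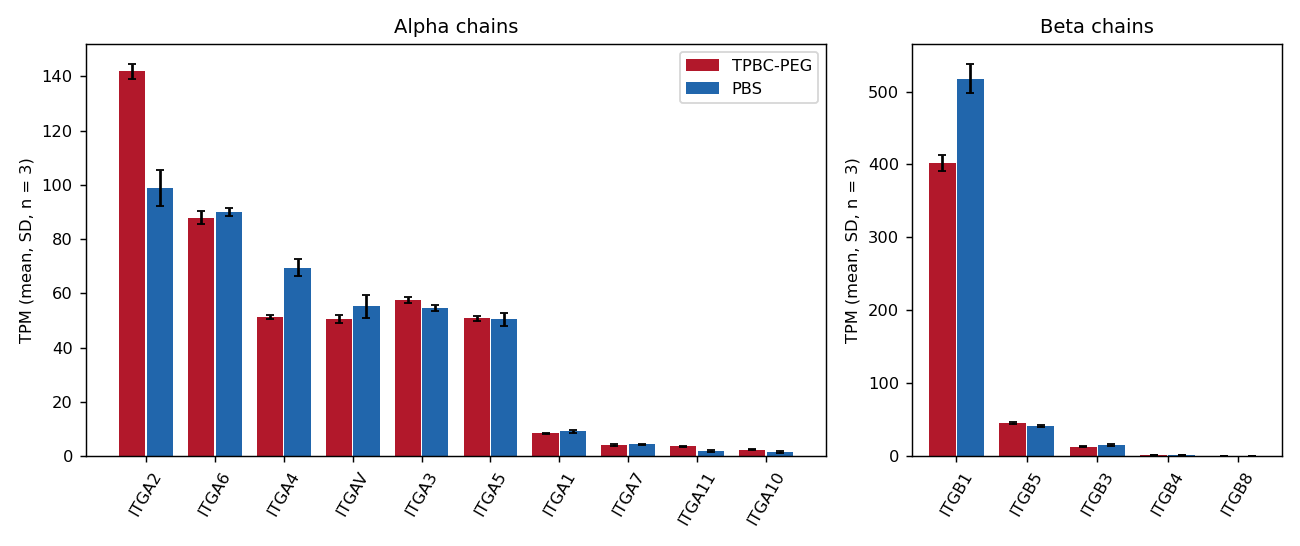
Levels of integrin alpha and beta chains in TPM; bars are means of 3 libraries and error bars SD, TPBC-PEG left of PBS, on axes from 0. ITGA2 is the highest alpha chain in both groups, and ITGB1 stands at 402.4 TPM with TPBC-PEG and 518.0 TPM with PBS.

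The share of ITGA2 in the summed alpha chain TPM was 31.2%, 31.4% and 30.4% with TPBC-PEG and 22.8%, 23.3% and 22.0% with PBS. The share of ITGA4 was 11.2% ± 0.222 with TPBC-PEG and 16.0% ± 0.488 with PBS (SD, n = 3). ITGA2 thus held more and ITGA4 less of the alpha chain transcripts in every TPBC-PEG library. ITGA1, ITGA2, ITGA10 and ITGA11 together made up 34.1% ± 0.508 with TPBC-PEG and 25.6% ± 0.674 with PBS (SD, n = 3), most of it ITGA2.

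In TPM, summed beta chains were at 468.8, 447.5 and 466.9 with TPBC-PEG and 583.5, 593.6 and 550.6 with PBS, a log2 ratio of -0.32. Summed alpha chains stood at 454.5, 461.7 and 458.4 with TPBC-PEG and 442.6, 447.3 and 416.0 with PBS, a log2 ratio of 0.075. Beta chains were lower in every TPBC-PEG library, and each sum had a two-sided exact permutation p of 0.1 (n = 3 per group), the smallest that 3 against 3 libraries allow. With TMM-scaled CPM per kilobase, a scaling added after the data were seen, the log2 ratios were -0.39 for beta and 0.0021 for alpha chains, so no direction is given for the alpha sum.

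The ratio of summed alpha to summed beta chains needs no scaling between libraries. It was 0.970, 1.03 and 0.982 with TPBC-PEG and 0.759, 0.754 and 0.756 with PBS. The groups did not overlap, and the log2 ratio of 0.40 again had an exact permutation p of 0.1. ITGB1 held 87.3% ± 0.316 with TPBC-PEG and 89.9% ± 0.0506 with PBS (SD, n = 3) of the beta chain TPM.

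**Figure D3:**
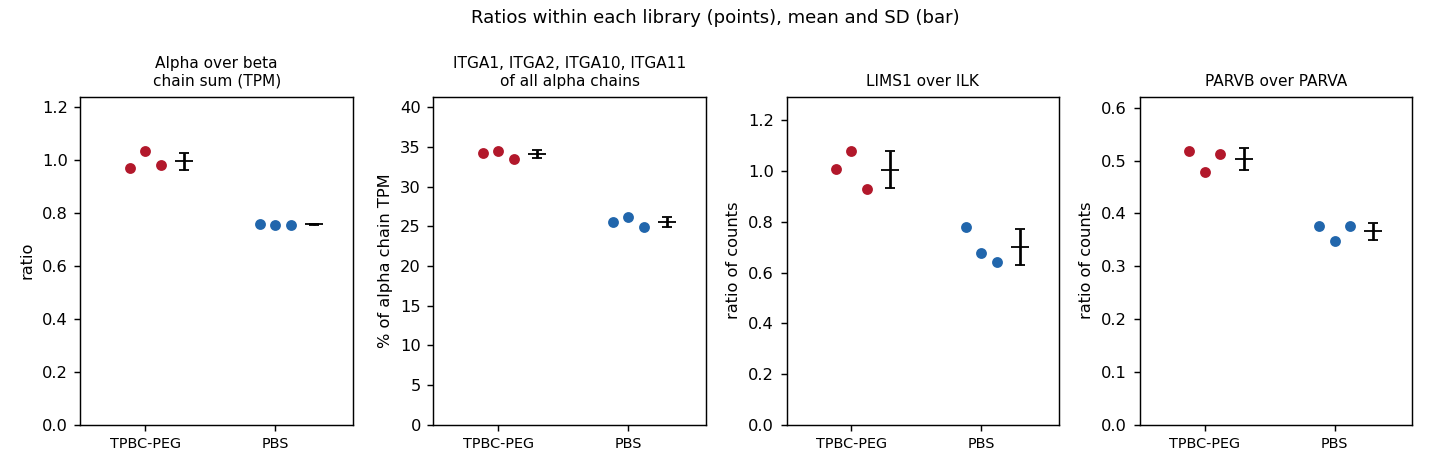
Ratios formed within each library: summed alpha over summed beta chain TPM, the share of ITGA1, ITGA2, ITGA10 and ITGA11 in alpha chain TPM, LIMS1 over ILK counts and PARVB over PARVA counts. Points are libraries and bars mean and SD (n = 3), TPBC-PEG left of PBS; in all 4 panels the TPBC-PEG libraries lie above the PBS libraries.

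The other membrane receptors, both abundant, were lower with TPBC-PEG. CD44, the hyaluronan receptor, was at 570.1, 555.1 and 555.1 CPM with TPBC-PEG and 635.9, 648.1 and 694.0 CPM with PBS, a log2 fold change of -0.23 ± 0.037 (SE). CD151, a tetraspanin that binds laminin-binding integrins, was at 239.5, 217.7 and 247.3 CPM with TPBC-PEG and 288.2, 272.3 and 268.6 CPM with PBS, a change of -0.24 ± 0.041 (SE). In neither gene did the groups overlap.

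Of the talin, kindlin, vinculin and tensin genes, 7 of 7 passed as lower, where 16.9% of all genes did. Their median was -0.28 on the log2 scale, against 0.011 over all genes. The calls of FERMT1, FERMT2 and TNS3 were lost in other settings, given with each gene. VCL (ENSG00000035403, chromosome 10, 73995193 to 74121363), whose product vinculin bridges talin and actin under tension, had 349.2, 347.2 and 371.6 CPM with TPBC-PEG and 518.2, 536.5 and 531.0 CPM with PBS. The gap between the groups was many times the spread within them. The log2 fold change was -0.57 ± 0.037 (SE; edgeR adjusted p = 9.16e-18), and the level fell by 32.7%.

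TNS1, a tensin of long-lived fibrillar adhesions, was at 33.1, 30.9 and 36.4 CPM with TPBC-PEG and 47.7, 47.7 and 52.7 CPM with PBS, a log2 fold change of -0.56 ± 0.066 (SE; edgeR adjusted p = 1.41e-09). TNS3, another tensin, was at 65.7, 75.3 and 80.3 CPM with TPBC-PEG and 83.4, 81.7 and 82.8 CPM with PBS, with a change of -0.17 ± 0.055 (SE). The TPBC-PEG libraries differed more among themselves for TNS3 than the PBS libraries did. Without TPBC-PEG replicate 1 the TNS3 change was -0.090 and did not pass (edgeR adjusted p = 0.262), nor did it with library size alone (0.0814).

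**Figure D4:**
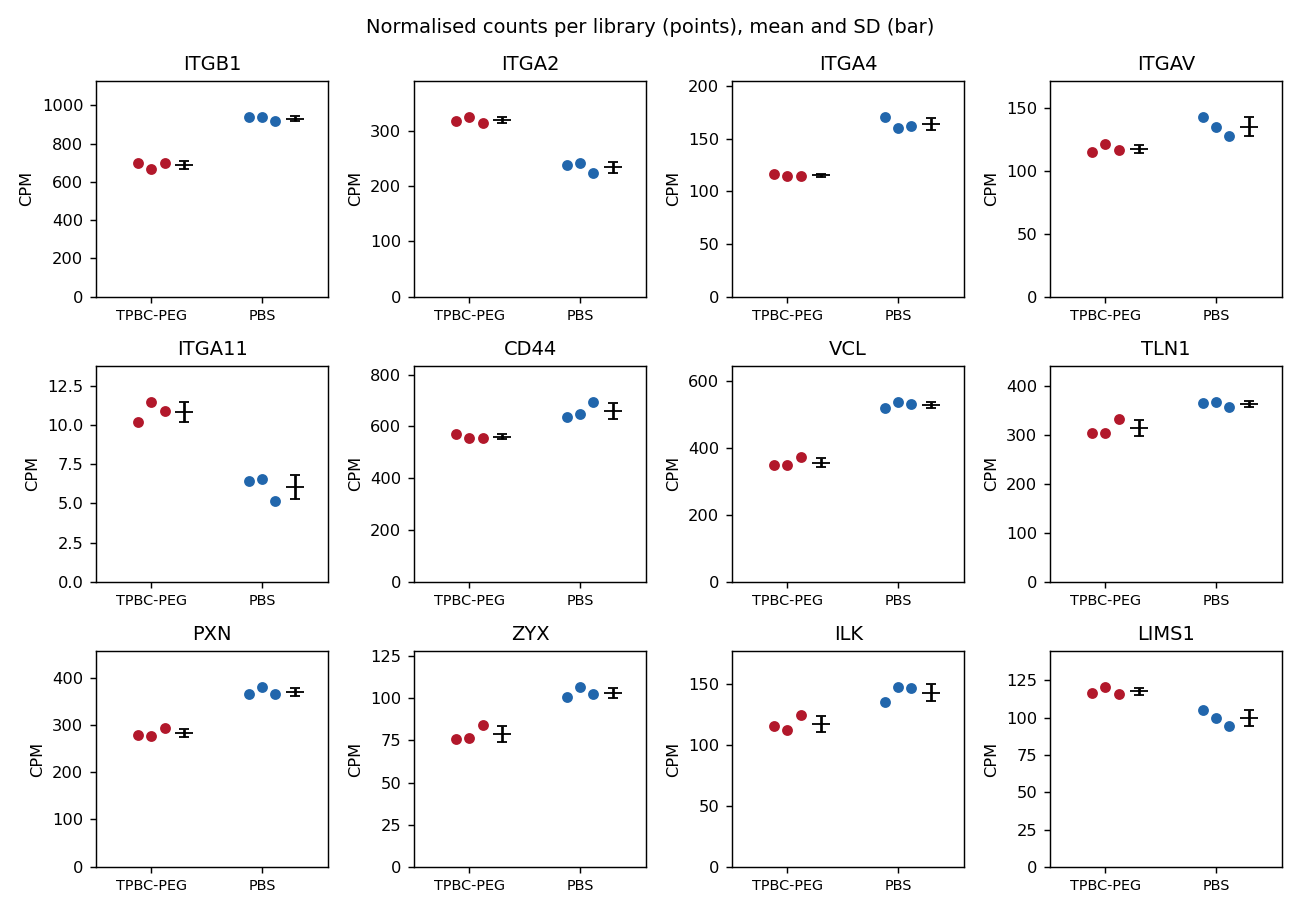
TMM-scaled CPM of 12 genes in each library (points), with the mean and SD of 3 libraries, TPBC-PEG left of PBS, on axes from 0. ITGA2, ITGA11 and LIMS1 are higher with TPBC-PEG and the other 9 lower, and in no panel do the groups overlap.

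Both talin genes, whose products activate integrins from within, were lower. TLN1, the ubiquitous form, was at 304.5, 304.4 and 332.9 CPM with TPBC-PEG and 365.0, 367.4 and 356.7 CPM with PBS, a log2 fold change of -0.21 ± 0.038 (SE). TLN2, the rarer form, was at 31.5 ± 0.645 CPM with TPBC-PEG and 38.7 ± 1.61 CPM with PBS (SD, n = 3), a change of -0.30 ± 0.066 (SE). Their 95% intervals overlapped, from -0.29 to -0.13 for TLN1 and from -0.43 to -0.16 for TLN2.

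Both kindlin genes were lower too. FERMT2, the widespread form, was at 176.3 ± 4.01 CPM with TPBC-PEG and 194.3 ± 2.11 CPM with PBS (SD, n = 3), a log2 fold change of -0.14 ± 0.039 (SE). FERMT1, the form typical of epithelia, was at 21.7 ± 1.84 CPM with TPBC-PEG and 26.5 ± 2.50 CPM with PBS (SD, n = 3), a change of -0.28 ± 0.082 (SE). The FERMT1 call was lost without TPBC-PEG replicate 2 (edgeR adjusted p = 0.0714) and the FERMT2 call with the expression-level trend taken out (0.140).

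The scaffold of ILK, PINCH and parvin proteins split, with 2 genes lower and 2 higher. Over all genes tested 16.9% were lower and 16.2% higher. ILK, the pseudokinase at its centre, was at 115.6, 111.7 and 124.4 CPM with TPBC-PEG and 134.8, 147.1 and 146.4 CPM with PBS, a log2 fold change of -0.29 ± 0.045 (SE; edgeR adjusted p = 1.39e-06), although most of its exon length overlaps genes on the other strand. LIMS1, which encodes PINCH1, was at 116.4, 120.4 and 115.8 CPM with TPBC-PEG and 105.3, 99.8 and 94.1 CPM with PBS, a change of 0.24 ± 0.046 (SE; edgeR adjusted p = 4.82e-05). ILK was lower and LIMS1 higher in every TPBC-PEG library.

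PARVA, the parvin of most tissues, was at 55.5, 58.5 and 56.8 CPM with TPBC-PEG and 66.5, 66.0 and 70.7 CPM with PBS, a log2 fold change of -0.25 ± 0.053 (SE). PARVB, another parvin, was at 28.7, 28.0 and 29.1 CPM with TPBC-PEG and 25.0, 22.9 and 26.6 CPM with PBS, a change of 0.20 ± 0.075 (SE). The PARVB call was lost without TPBC-PEG replicate 1, 2 or 3 (edgeR adjusted p = 0.0777, 0.0507 and 0.0762), without PBS replicate 1 or 2 (0.0657 and 0.175), with no filter (0.0592) and with DESeq2 (0.0840).

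Within libraries, the ratio of LIMS1 to ILK counts was 1.01, 1.08 and 0.931 with TPBC-PEG and 0.781, 0.679 and 0.643 with PBS. The ratio of PARVB to PARVA counts was 0.518, 0.479 and 0.512 with TPBC-PEG and 0.375, 0.348 and 0.376 with PBS. Neither pair of groups overlapped; the pairs were chosen after their values were seen and were not tested. LIMS2, which encodes PINCH2, was too low to test, with 3 to 8 counts per library with TPBC-PEG and 0 to 7 with PBS. LIMS3 and LIMS4, near copies of LIMS1, had 3 and 7 counts over all 6 libraries.

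The kinases and docking adaptors gave 3 falls, 1 rise and 3 genes that did not pass. That is 57.1% called, where 33.2% of all genes tested were, 16.9% as lower and 16.2% as higher. BCAR1, which encodes the stretch-sensing scaffold p130Cas, was at 63.0, 60.6 and 67.7 CPM with TPBC-PEG and 86.5, 85.8 and 89.7 CPM with PBS, a log2 fold change of -0.46 ± 0.051 (SE; edgeR adjusted p = 3.98e-10). PXN, which encodes the docking protein paxillin, was at 279.6, 276.6 and 293.5 CPM with TPBC-PEG and 365.7, 379.5 and 364.3 CPM with PBS, a change of -0.39 ± 0.037 (SE; edgeR adjusted p = 5.36e-12). Both scaffolds were lower in every TPBC-PEG library. TGFB1I1, the paxillin relative Hic-5, was at 16.8 ± 0.250 CPM with TPBC-PEG and 18.8 ± 2.72 CPM with PBS (SD, n = 3), with a 95% interval of the log2 fold change from -0.35 to 0.020, and passed in 1 setting, without PBS replicate 3, at -0.27 (edgeR adjusted p = 0.0337).

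PTK2, the gene of focal adhesion kinase, was at 139.4, 140.9 and 133.3 CPM with TPBC-PEG and 159.4, 141.0 and 149.1 CPM with PBS. The highest TPBC-PEG library all but met the lowest PBS library, and the log2 fold change was -0.12 ± 0.044 (SE). The PTK2 call was lost without TPBC-PEG replicate 1 or 3 (edgeR adjusted p = 0.0563 and 0.125), without PBS replicate 1, at -0.080 (0.199), with DESeq2 (0.0557), after removal of the expression-level trend (0.278) and when scaled by library size alone (0.183).

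SRC, the kinase that partners it, was the gene of this group that rose, at 48.5, 48.3 and 45.8 CPM with TPBC-PEG and 43.9, 41.3 and 38.8 CPM with PBS. Its log2 fold change of 0.20 ± 0.062 (SE) lost its call without PBS replicate 3, at 0.15 (edgeR adjusted p = 0.0786). CRK, an adaptor that reads phosphorylated p130Cas and paxillin, was at 155.3 ± 5.30 CPM with TPBC-PEG and 160.2 ± 4.71 CPM with PBS (SD, n = 3), and the 95% interval of its log2 fold change ran from -0.12 to 0.039. For its relative CRKL, at 105.2 ± 1.35 CPM with TPBC-PEG and 103.2 ± 6.62 CPM with PBS (SD, n = 3), that interval ran from -0.065 to 0.12.

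In the zyxin family, which marks mature adhesions under tension, 2 of 3 genes fell, where 16.9% of all genes tested did. ZYX, zyxin itself, was at 75.8, 76.3 and 84.5 CPM with TPBC-PEG and 101.0, 106.6 and 102.5 CPM with PBS, a log2 fold change of -0.39 ± 0.049 (SE; edgeR adjusted p = 5.32e-09). LPP, whose window with the SRF element is printed above, was at 172.0, 174.4 and 192.5 CPM with TPBC-PEG and 209.1, 197.7 and 207.0 CPM with PBS, a change of -0.19 ± 0.041 (SE). The third, TRIP6, was at 42.8 ± 1.44 CPM with TPBC-PEG and 44.4 ± 2.18 CPM with PBS (SD, n = 3), and its 95% interval ran from -0.18 to 0.071.

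VASP, an actin polymerisation factor that zyxin recruits, was at 66.0, 68.0 and 66.1 CPM with TPBC-PEG and 75.6, 71.9 and 74.0 CPM with PBS, a log2 fold change of -0.15 ± 0.051 (SE). The VASP call was lost without TPBC-PEG replicate 1 or 3 (edgeR adjusted p = 0.0776 and 0.0508), without PBS replicate 1 (0.0631), with library size alone (0.122), with the GC trend taken out (0.122) and with the expression-level trend taken out (0.0574).

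Exon overlap reached 10% of the annotated length in 4 of the 40 genes. ILK shares 78.5% of its exon length with genes on the other strand, chiefly TAF10, which was at 7.48 CPM with TPBC-PEG and 8.46 CPM with PBS and did not pass. ITGB3 shares 51.6% with a gene on the same strand that had no count. PXN shares 12.4% with genes on the other strand, of which PXN-AS1 was at 3.79 CPM with TPBC-PEG and 3.69 CPM with PBS. VCL shares 11.1% with AP3M1 on the other strand, at 119.7 CPM with TPBC-PEG and 126.2 CPM with PBS. If strand was ignored in counting, reads in exons shared with the other strand cannot be told apart. For ITGB3, whose partner is on the same strand, such reads cannot be told apart under any strand setting.

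Other genes of the pathway were read from lists chosen by name, with the same test over all genes. These lists too were chosen with earlier results of these data known. Of 30 tested plaque genes outside the 40, 15 fell and 2 rose, with a median of -0.17 on the log2 scale. Thus 56.7% of them were called, where 33.2% of all genes tested were. CSRP1, a LIM protein on actin fibres, was at 207.7 ± 6.20 CPM with TPBC-PEG and 306.9 ± 7.60 CPM with PBS (SD, n = 3), a log2 fold change of -0.56 ± 0.038 (SE), and LPXN, the paxillin relative leupaxin, rose by 0.26 ± 0.073 (SE). TNS2, a tensin, was at -0.55 ± 0.19 (SE). The TNS2 call was lost without TPBC-PEG replicate 1 or 2 (edgeR adjusted p = 0.0519 and 0.101), without PBS replicate 2 or 3 (0.0751 and 0.0876) and with DESeq2 (0.0594).

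Of 30 genes of adhesion signalling, 6 fell and 5 rose, with a median of -0.067; these 36.7% are near the 33.2% called over all genes. RHOB, a small GTPase, was at -0.32 ± 0.071 (SE) and ARHGAP5, an inhibitor of RHOA, at 0.27 ± 0.043 (SE). CDC42, another small GTPase, was at -0.23 ± 0.039 (SE) and the SRC relative FYN at 0.18 ± 0.066 (SE). Other genes overlap 36.0% of the exon length of ARHGAP5 and 59.4% of that of CDC42. The FYN call was lost without TPBC-PEG replicate 1 or 2 (edgeR adjusted p = 0.117 and 0.158), without PBS replicate 1 or 3 (0.0862 and 0.0764), with no filter (0.0556), with DESeq2 (0.0834) and with the GC trend taken out (0.0654).

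Of 18 tested genes of integrin activation and traffic, 4 fell and 3 rose, and these 38.9% too are near the 33.2% called over all genes. FLNA, the filamin that competes with talin for the beta chain, was at 1236 ± 86.6 CPM with TPBC-PEG and 1645 ± 69.1 CPM with PBS (SD, n = 3), a log2 fold change of -0.41 ± 0.042 (SE). ITGB1BP1, which encodes the inhibitor ICAP-1, was at -0.26 ± 0.066 (SE), with 33.1% of its exon length shared with another gene. APBB1IP, which encodes the talin recruiter RIAM, rose by 0.37 ± 0.095 (SE) and NUMB, an endocytic adaptor, by 0.23 ± 0.042 (SE).

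Of 27 tested ligand and matrix genes 18 fell and 2 rose, with a median of -0.37. These are 74.1% called, beside 33.2% over all genes. FN1, fibronectin, the ligand of the ITGA5 and ITGA4 receptors, was at 83.0, 72.0 and 84.9 CPM with TPBC-PEG and 146.2, 159.5 and 154.4 CPM with PBS, a log2 fold change of -0.94 ± 0.050 (SE; edgeR adjusted p = 1.05e-17). TGFBI, a matrix protein that integrins bind, was at -0.65 ± 0.041 (SE), while SPP1, osteopontin, rose by 0.79 ± 0.079 (SE) and TNC, tenascin C, by 0.40 ± 0.044 (SE).

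Of 23 membrane partners of integrins and CD44, 9 fell and 2 rose, 47.8% called beside 33.2% over all genes. SLC3A2, the CD98 heavy chain that binds beta chains and also carries amino acid transporters, was at 342.1, 359.2 and 316.6 CPM with TPBC-PEG and 168.1, 165.1 and 155.4 CPM with PBS, a log2 fold change of 1.06 ± 0.042 (SE; edgeR adjusted p = 1.49e-23). MMP14, which cleaves CD44, rose by 0.21 ± 0.045 (SE), and TSPAN4 and BSG fell, at -0.34 ± 0.054 (SE) and -0.29 ± 0.037 (SE).

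Integrin chains outside the 40 genes were scarce. Of 11 such genes 5 were tested and 0 passed with edgeR, DESeq2 or limma-voom; at an unadjusted p under 0.05 there was 1 with edgeR, 0 with DESeq2 and 1 with limma-voom. The most abundant were ITGAE, at 23.2, 20.2 and 21.2 CPM with TPBC-PEG and 24.5, 22.4 and 24.7 CPM with PBS, and ITGAX, at 9.25, 9.16 and 9.22 CPM with TPBC-PEG and 6.83, 8.87 and 6.94 CPM with PBS. ITGAX passed as higher without PBS replicate 2, at 0.42 (edgeR adjusted p = 0.0196), and with library size alone (0.0427). Of 13 mitochondrially encoded mRNAs, read as a measure of library make-up, 9 were lower with TPBC-PEG, or 69.2%, where 16.9% of all genes tested were lower.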

How the data were processed

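Messenger RNA was sequenced in 6 libraries of 143B cells, 3 given TPBC-PEG and 3 given PBS, grouped by sample title. The authors deposited raw read counts for 60683 genes; the submitters' processing notes name HISAT2 and GRCh38. The HISAT2 version and the counter, annotation and strand setting were not given in the sources used here.

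Genes were filtered with filterByExpr (minimum count 10, total 15), which left 15846, scaled by TMM and tested with edgeR 4.0.16 (quasi-likelihood, robust, group only) in R 4.3.3, with Benjamini-Hochberg adjustment over all genes and a call at 0.05. The common biological coefficient of variation was 4.19%. Symbols, positions, exon lengths and overlaps came from GENCODE release 29 (GRCh38) and promoter windows from RefSeq. Exact permutation tests used SciPy 1.17.1. Figures were drawn with matplotlib 3.10.9.

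The members, lists and tests were chosen with earlier results of these data known. All 40 members are named; the naming rule gave 24 further genes (in each list, up to 2 called per direction with the largest change, or the 2 most abundant), of which mitochondrial ones are given as a count only and a further gene is not reported here. Alternatives were other scalings and filters, DESeq2 1.42.0, limma-voom 3.58.1, non-robust estimation, a 1.5-fold null, GC and expression-level offsets (lowess, span 0.3), the replicate number as a block, coding length for TPM, and leaving out each library.

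The test was checked on simulated data. Total counts per library were 15726323 to 20486584.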

Additional observations from a re-analysis of the deposited data

How the results depend on the processing

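Of the 29 called genes, 19 kept their call and direction, 16 lower and 3 higher, under all 17 other settings that leave the null at 0, and 10 lost it in at least 1 setting. Against a 1.5-fold change 145 genes of all, and 0 higher and 0 lower adhesion genes, passed. Other settings that kept every library and a null at 0 gave 18 lower adhesion genes with library size alone. They gave 19 after removal of the expression-level trend and 22 or 23 otherwise, with 4 to 6 higher. Leaving out single libraries gave 19 to 23 lower and 4 to 5 higher, and 4128 to 4832 genes called of all. With TMM-scaled CPM per kilobase, chosen after seeing the data, the log2 ratio was 0.0021 for summed alpha chains and -0.39 for summed beta chains; the cause was not tested.

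Small differences that did not pass changed sign. ITGA3 was at -0.0020 with DESeq2 size factors and with DESeq2, at -0.0026 with no filter, and ranged from -0.0080 to 0.020 without single libraries, with values below 0 without TPBC-PEG replicate 2 or 3 or PBS replicate 1 or 2 (-0.0056, -0.0045, -0.0080 and -0.00093). CRK was at 0.00097 when scaled by library size alone and 0.016 after removal of the expression-level trend, and TRIP6 at 0.022 after removal of the GC trend. Without single libraries ITGB4 ranged from -0.43 to 0.072 (without PBS replicate 1) and CRKL from -0.0074 (without PBS replicate 2) to 0.076.

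The labels give both groups the same replicate numbers but tie them to no shared culture or day. Deviations of same-numbered libraries from their group means correlated at 0.0034, 0.065 and -0.015. Those of libraries with different numbers correlated at -0.055 to 0.051. Whether same-numbered libraries share a culture or day was not tested. With the replicate block 5175 genes of all were called, and 23 adhesion genes were lower and 6 higher; the block gave log2 ratios of 0.075, -0.32 and 0.40 for the alpha sum, the beta sum and their ratio. Counts per library were lowest for LIMS2, ITGB8, ITGB4 and ITGA10, so counting error is largest for these.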
